A study of Mus musculus with 2 samples.

Results

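The Myc stretch is the part of mouse chromosome 15 from 61300000 to 63800000 (mm9), which holds Myc, Pvt1 and the long gene-poor span beyond them with enhancers used by blood cells. CTCF-bound regions were made by joining adjoining 25-bp windows of the deposited peak track with a gap of 0 bp, and a region belonged to the stretch if its midpoint did. This gave 24 regions of 51661 in the whole library, of which 51660 lay on the autosomes and the X and served as the background. The bounds of the stretch were set by position and not by any measured value. Its members were nevertheless chosen with earlier results of these data known.

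CTCF binding was mapped by ChIP-seq, in which DNA that comes down with a protein is sequenced, in 1 library made with an anti-CTCF antibody from CD4+CD8+ (double-positive) thymocytes. The mice were Rag1 -/- on a C57BL/6 background, were 4 to 8 weeks old and carried a rearranged T cell receptor beta transgene. Rag1 -/- mice cannot rearrange their own receptor genes, and the beta transgene is what lets their thymocytes reach the double-positive stage. An input library from thymocytes of the same genotype is listed in the labels and was not analysed here. With 1 library and no second condition, no replicate error could be given, and places in the genome are compared only within that library. The track gives positions with no height or read count, so the labelled cell type could not be checked against markers, and width is the only value of a region.

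Myc encodes a transcription factor that drives cell growth and division, and thymocytes need it while they expand before the double-positive stage. Pvt1 is a long non-coding RNA gene next to Myc. Much of the control of Myc in blood cells comes from enhancers far downstream, among them N-Me, a Notch-driven enhancer needed in developing T cells, and BENC, the blood enhancer cluster used by blood stem cells and in leukaemia. CTCF stops the extrusion of chromatin loops by cohesin, so its sites often lie at the anchors of contacts between a promoter and distant elements. CTCF binding immediately upstream of the Myc promoter is known in human and mouse cells.

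In the RefSeq gene table, which uses GRCm38 and served here only for gene order, no gene is listed between Myc and Pvt1. The next protein-coding gene after Myc is Gsdmc, a gasdermin gene. Gsdmc was not placed on mm9, so whether it lies inside the stretch was not determined. Between Pvt1 and Gsdmc the table lists 15 genes, and none of them is protein-coding. They are 8 long non-coding RNAs, 5 pseudogenes counting 1 that is transcribed, 1 small nuclear RNA and 1 small nucleolar RNA. Below Myc, A1bg is the nearest protein-coding gene, with 7 other listed genes between them.

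From low to high position, the 24 regions were a pair of short ones below Myc, a compact group of 4 beside Myc, 7 scattered regions after Pvt1 and a run of 11 at the far end. Together they covered 11025 bp, or 0.441% of the stretch, compared with 0.865% of the rest of the autosomes and the X. The density was 9.6 regions per Mb (exact 95% Poisson interval 6.15 to 14.3), below the 21.3 per Mb (20.4 to 22.2) of the rest of chromosome 15 and the 19.6 per Mb (19.4 to 19.8) of the rest of the genome. These intervals cover counting error only and treat regions as independent. Density varies widely along the genome, and a density this low was common. Of 1044 consecutive tiles of 2.5 Mb, 36.3% held fewer than 24 regions, and the median tile held 38 (quartiles 14 and 72). Tiles began at the first position of each chromosome, and none was left out for lacking sequence. The share of sparse tiles therefore includes the 5.75% that held no region.

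**Figure D1:**
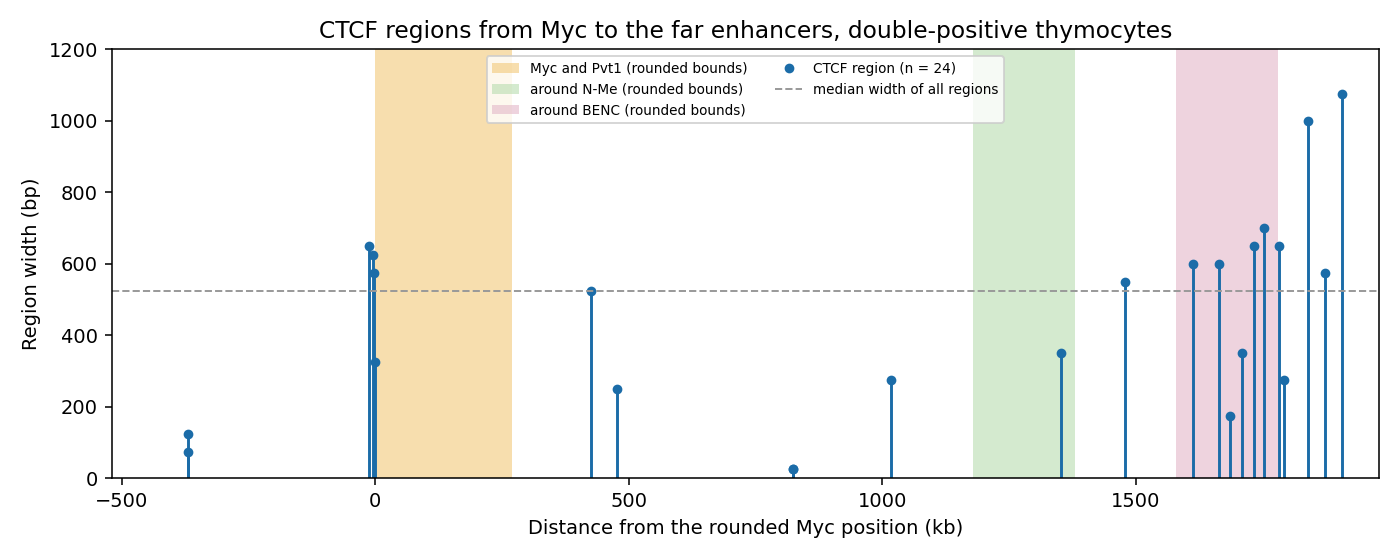
The x axis is the distance in kb from the Myc position rounded to 10 kb, and the y axis is the width in bp of each of the 24 CTCF regions (points with stems). Shaded bands mark Myc and Pvt1, N-Me and BENC with rounded bounds, the dashed line marks the median width of all regions (525 bp), and regions crowd at Myc and at the far end.

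**Figure D2:**
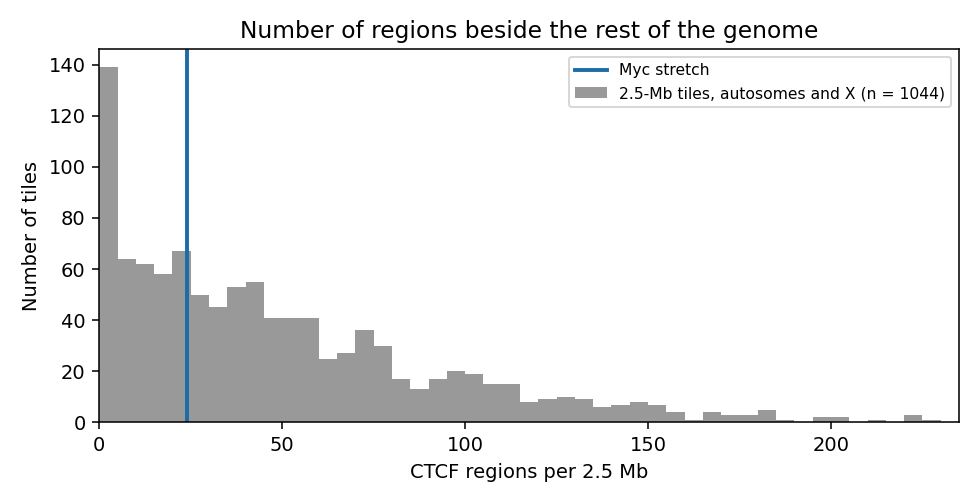
The x axis is the number of CTCF regions per 2.5 Mb and the y axis the number of consecutive tiles of that length on the autosomes and the X (grey bars, 1044 tiles). The Myc stretch (blue line) held 24 regions, below the median tile of 38.

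Divided into 5 equal parts of 0.5 Mb from low to high position, the stretch held 2, 6, 2, 3 and 11 regions. Covered bases followed a steeper course, with 200, 2950, 50, 1175 and 6650 bp. The last part alone held 60.3% of the covered bases. Its 11 regions had an exact 95% Poisson interval of 5.49 to 19.7, and the parts with 2 regions one of 0.242 to 7.22. The difference between parts was not tested. Across the genome, 36.1% of tiles of 0.5 Mb held 11 or more regions and 37.6% held 2 or fewer. The latter share includes the 23.2% of tiles with no region, and none was left out for lacking sequence. Neither the full nor the empty parts of the stretch were thus rare in themselves.

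Beside Myc, 4 regions lay within 12.3 kb (61806430 to 61818754) and covered 2175 bp. The region farthest from the gene was 650 bp wide (61806430 to 61807079). After a distance of 7.55 kb came a region of 625 bp (61814630 to 61815254). A region of 575 bp (61816830 to 61817404) followed after 1.575 kb, and a region of 325 bp (61818430 to 61818754) after a further 1.025 kb. The last 3 regions were thus packed into 4.125 kb, of which they covered 37.0%. When regions at most 10 kb apart were chained, the stretch gave 18 chains, single regions included, and this was the only one of 3 or more regions, compared with 18.3% of all chains in the genome.

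The Myc position used here, 61.82 Mb, was rounded to 10 kb. The midpoints of the 4 regions lay 13.2, 5.06, 2.88 and 1.41 kb below it. They therefore lie at Myc or upstream of it, and no region was assigned to the promoter, an exon or an intron, since no mm9 annotation was used here. With all inner bounds moved 20 kb down, the 4 regions were counted with Myc and Pvt1 instead of ahead of Myc.

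**Figure D3:**
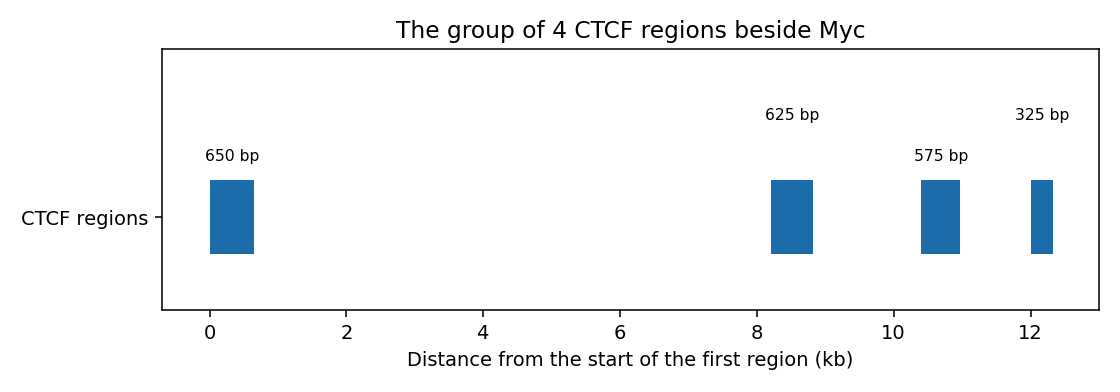
The x axis is the distance in kb from the start of the first region, and the bars show to scale the 4 CTCF regions of the group beside Myc, with their widths of 650, 625, 575 and 325 bp. The 3 regions on the right lie within 4.125 kb, and the first stands 7.55 kb apart.

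The group beside Myc stood alone. No region was listed over the 355.85 kb below it (61450580 to 61806429) or over the 426.375 kb above it (61818755 to 62245129). Distances longer than 300 kb made up 2.48% of all distances between neighbouring regions in the genome, and 4 of the 23 distances in the stretch were of this kind. The distance above the group was the longest of the stretch. It ran across the whole of Pvt1, whose rounded end is at 62.09 Mb, so that no CTCF region was listed in Pvt1. Below the group, the nearest regions were a pair of short ones, 125 bp (61450280 to 61450404) and 75 bp (61450505 to 61450579), separated by 100 bp. No other region of the stretch lay below the group.

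After the end of Pvt1 came 7 scattered regions over 1.05 Mb (62245130 to 63299029), which covered 2000 bp in all. The first was 525 bp wide (62245130 to 62245654), and the second, 250 bp wide (62296580 to 62296829), followed after 50.9 kb. A gap of 347.95 kb (62296830 to 62644779) then ended in a pair of 25-bp regions (62644780 to 62644804 and 62644830 to 62644854) with 25 bp between them. Each of these was a single window of the track, the smallest listing possible. A region of 275 bp (62838130 to 62838404) was the last before the fourth long gap, of 333.55 kb (62838405 to 63171954).

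Most of these scattered regions were short. Their median width was 275 bp, and 2 of the 7 reached the genome's median width of 525 bp. When regions narrower than 525 bp were left out, no region remained between 62245654 and 63298480, a gap of 1053 kb. The long gaps took up a large share of the stretch: the 4 longest summed to 1.46 Mb, or 58.5% of its length.

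N-Me, the T cell enhancer, was placed between 63.0 and 63.2 Mb with rounded bounds. This interval held 1 region, 350 bp wide (63171955 to 63172304), at its upper end, and the nearest region below the interval was the one of 275 bp. The next region above, 550 bp wide (63298480 to 63299029), followed after 126.175 kb and was the only one between the N-Me and BENC intervals. Regions near N-Me therefore stood far apart. The count of 1 had an exact 95% Poisson interval of 0.0253 to 5.57. As a density it was 5 per Mb (0.127 to 27.9), and this interval includes the 19.6 per Mb of the rest of the genome. The count alone thus does not set the N-Me interval apart from the genome.

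The far end was different. From 63433005 to 63728029, 11 regions stood over 295 kb, a density of 37.3 per Mb within this span, whose limits were chosen after the values were seen as those of the last regions with no distance above 100 kb. BENC, placed between 63.4 and 63.6 Mb with rounded bounds, held 6 of them (exact 95% Poisson interval 2.20 to 13.1), which covered 3075 bp. The other 5 lay between 63.6 and 63.8 Mb, and covered 3575 bp. The difference in number between the N-Me and BENC intervals was not tested.

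In the BENC interval, the regions began with a pair of 600 bp each (63433005 to 63433604 and 63483980 to 63484579). A region of 175 bp (63506055 to 63506229) and a region of 350 bp (63529480 to 63529829) came next. A region of 650 bp (63553105 to 63553754) preceded the widest of the interval, 700 bp (63572005 to 63572704). Past the BENC interval, a region of 650 bp (63603005 to 63603654) had a neighbour of 275 bp (63612105 to 63612379) at 8.45 kb. The last 3 regions of the stretch were 1000 bp (63660005 to 63661004), 575 bp (63693430 to 63694004) and 1075 bp wide (63726955 to 63728029).

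Of these 11 regions, 8 were at least 525 bp wide, a width reached by 51.8% of all regions in the genome. Their median width was 600 bp, compared with 275 bp for the 7 scattered regions after Pvt1, and with so few regions neither value sets the run apart from the genome. Their 10 distances ran from 8.45 to 50.4 kb, with a median of 26.8 kb and a mean of 28.8 ± 12.9 kb (SD across the 10 distances). Over the autosomes and the X, 41.4% of distances lay in this range, whose limits are those of the run itself. The packing at Myc, with distances of 1.025 to 7.55 kb, did not recur here. Of the 24 regions, 2 were at least 1000 bp wide, both in the last 0.2 Mb, and 1.17% of all regions in the genome reached this width.

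**Figure D4:**
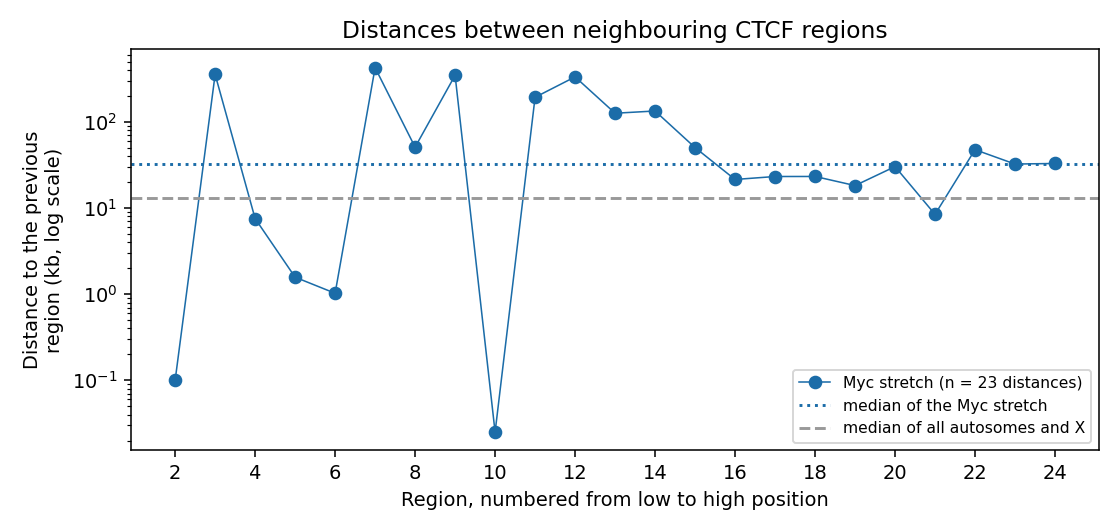
The x axis numbers the 24 regions from low to high position, and the y axis (log scale) is the distance in kb from each to the region before it (points). Distances swing between 0.025 and 426.375 kb up to region 14 and stay between 8.45 and 50.4 kb after it, where lines mark the medians of the stretch (32.4 kb, dotted) and of all autosomes and the X (13.1 kb, dashed).

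Most of the 24 regions had no close neighbour. A neighbour within 10 kb was found for 10 of the 24 regions (41.7%, exact 95% binomial interval 22.1 to 63.4), and for 65.6% of all regions. Those 10 were the 4 beside Myc, the pair below Myc, the pair of 25-bp regions and the pair at the start of the last 0.2 Mb. A group of 3 or more held 4 of the 24 (16.7%, 4.74 to 37.4), compared with 42.4% of all regions. Regions with no neighbour within 50 kb numbered 6 (25%, 9.77 to 46.7), compared with 6.46% of all regions. They were the first 2 and the last 3 of the scattered regions after Pvt1, and the first of the run at the far end. For 3 of these 6 the nearest neighbour lay 50.4 or 50.9 kb away, just past the threshold. Because neighbours enter these counts together, the binomial intervals are too narrow. After the pairs at most 100 bp apart were joined, 6 of 22 regions had a neighbour within 10 kb.

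Neighbouring regions of the stretch stood a median of 32.4 kb apart (order-statistic 95% interval 18.25 to 126.175 kb, 23 distances), compared with 13.1 kb over the autosomes and the X and 10.85 kb over the rest of chromosome 15. Distances of at most 100 bp numbered 2 of 23, and 8.21% of all distances were as short.

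Widths were close to those of the genome. The median width was 537.5 bp (order-statistic 95% interval 275 to 625 bp), beside 525 bp over the rest of the genome. The mean was 459 ± 281 bp, beside 441 ± 251 bp (SD across regions). Regions at least 525 bp wide numbered 13 of 24 (54.2%), beside 51.8% of all regions. Regions of at most 75 bp numbered 3, beside 14.1% of all regions. All 3 of these short regions lay in the pairs below Myc and after Pvt1, and 3 of the 4 regions beside Myc and 8 of the 11 at the far end were at least 525 bp wide.

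**Figure D5:**
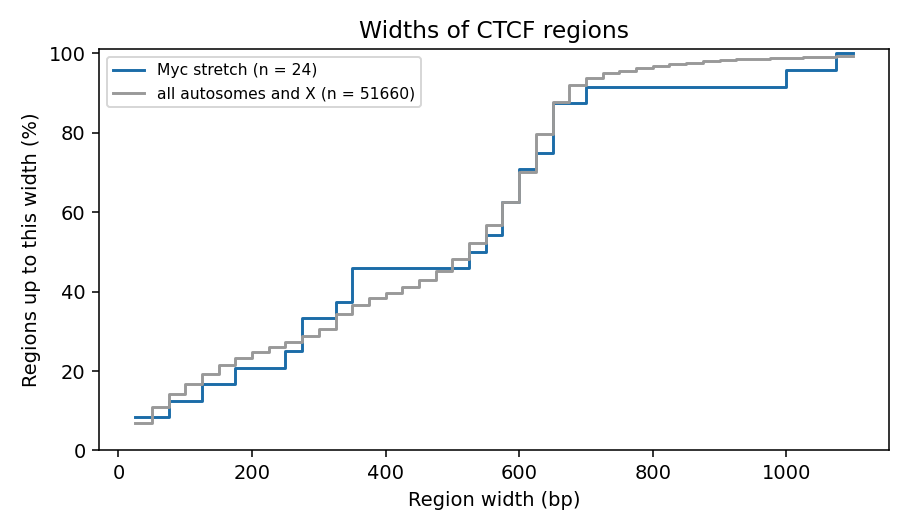
The x axis is the region width in bp and the y axis the percentage of regions up to that width, for the 24 regions of the Myc stretch (blue) and all 51660 regions on the autosomes and the X (grey). The curves run close together, with medians of 537.5 and 525 bp, and lie farthest apart near 350 bp, where 45.8% of the Myc stretch and 36.6% of all regions were that narrow.

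Both bounds of the stretch fell between regions that stood apart. At the upper end, the last region inside was the one of 1075 bp, and the first outside, 525 bp wide (63803380 to 63803904), had its midpoint 3.64 kb past the bound and 75.35 kb after its neighbour. At the lower end, the last region outside was 250 bp wide (61271380 to 61271629), with its midpoint 28.5 kb below the bound, and 178.65 kb separated it from the first region inside.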

How the data were processed

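The submitters' processing notes name Bowtie and the build mm9. How peaks were called, and whether the input entered, is not given in the sources used here. Per the file itself, the authors deposited 912174 windows of 25 bp lying in peaks, without a height, count or score, so depth is unknown. Starts were read as counted from 0 and coordinates are printed counted from 1. Adjoining windows were joined into regions, and the single mitochondrial region was left out of the background. Chromosome lengths ran to the last listed position. Anchors for Myc, Pvt1, N-Me and BENC are rounded positions from general knowledge of mm9. The members, anchors and measures were chosen with earlier results of these data known. Regions named by position are the widest of each of 7 segments, those next to the anchors, the longest gaps and the bounds, and all of every group of 3 or more. The other regions of the stretch were added to these after their values were seen. Joining, chaining and the Poisson interval were tested on simulated data, and the binomial and order-statistic intervals were not. Alternatives were joining at 100 or 1000 bp, leaving out regions of at most 75 bp or under 525 bp, membership by overlap, chaining at 5 or 20 kb, moved anchors and widened bounds. The tools were pandas 2.3.3, NumPy 2.4.6 and SciPy 1.17.1 under Python 3.11.15, with figures drawn in matplotlib 3.10.9.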

Additional observations from a re-analysis of the deposited data

How the results depend on the processing

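Of 105 values under the alternatives, 90 stayed within 1.5 times the reported count or length, or inside the interval of the reported density or median. The 105 are not all separate checks. Joining at 100 bp and at 1000 bp gave the same values, and membership by overlap changed none. Joining or leaving out regions of at most 75 bp left 21 or 22 regions and lowered those with a neighbour within 10 kb to 6. Without the short ones, 3 regions lay between Pvt1 and N-Me. Keeping only regions of at least 525 bp left 13 regions (5.2 per Mb) in 11 groups, 3 with a neighbour within 10 kb, and a longest gap of 1053 kb. It left 3 regions in the segment ahead of the rounded Myc position, 1 between Pvt1 and N-Me and 0 around N-Me. Moving the anchors 20 kb down gave 2 regions in the segment ahead of Myc and 4 in that of Myc and Pvt1. Moving them 20 kb up gave 3 in the last segment. Widening the bounds by 50 kb, chosen after seeing the data, gave 31 regions with a median width of 350 bp. No paired analysis was possible because there is 1 ChIP library. Without heights or depth, weak binding and absence of binding cannot be told apart where no region is listed.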

Other observations

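Groups as crowded and as isolated as the one beside Myc were few. The limits of this count were taken from the Myc group itself after its values were seen, so it is a description. Of 2705 groups of 4 or more regions chained at 10 kb, 4 had no other region within 355.85 kb on either side, the Myc group included. The others lay on chromosome 14 (84837845 to 84847169, 4 regions), chromosome 3 (67849619 to 67860693, 5 regions) and chromosome 5 (58105046 to 58111395, 7 regions). Their covered bases were 1075, 1900 and 1575 bp, beside 2175 bp at Myc. The median group of 4 or more had its nearer neighbour at 16.9 kb.

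Spacing like that of the far end recurred elsewhere, but in few places. Runs of 11 or more regions whose distances all lay between 8.45 and 50.4 kb numbered 14 in the genome, the far-end run included. They held 0.343% of all regions, and the longest held 21 regions. These limits were again taken from the far-end run itself after its values were seen.

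Past the upper bound, after a distance of 75.35 kb, regions were again listed close together. The 0.5 Mb above the stretch held 20 regions with a median width of 275 bp. Of these, 6 were at least 525 bp wide, a width reached by 51.8% of all regions. Several of the 20 were only 25 to 75 bp wide and lay within 0.15 kb of a neighbour. Such short listings raise the count and lower the median width. The last 0.5 Mb inside it held 11 regions with a median width of 600 bp. The 0.5 Mb below the stretch held 7 regions with a median width of 450 bp.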
